A study of Bos taurus with 6 samples.

Results

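Respiratory complexes II to V and the electron carrier cytochrome c were described from 47 of the 15252 genes named on an array of 43653 bovine probes, hybridised with RNA from blood of fat-1 transgenic and wild type cattle. A gene was included where a probe's gene name, or the symbol in brackets in its description, was SDHA, SDHB, SDHC, SDHD, CYC1 or CYCS, or began with UQCR, COX4 to COX8 or ATP5. These names took in 129 probes, and each gene was represented by its brightest probe over the 6 arrays. A gene counted as measured where the scanner software marked that probe's spot as well above background on 3 or more of the 6 arrays, and 46 of the 47 did, all of them on all 6 arrays. The exception was COX4I2. Of the 46, COX4NB (current symbol EMC8, a member of a membrane complex of the endoplasmic reticulum) and ATP5S (current symbol DMAC2L) matched by name alone, so that 44 measured genes encode subunits, a factor that joins complexes or the carrier.

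Complex II, which is also the succinate dehydrogenase of the citric acid cycle, passes electrons to ubiquinone, complex III passes them on to cytochrome c, and complex IV, cytochrome c oxidase, passes them to oxygen. Complexes III and IV pump protons out of the mitochondrial matrix, and complex V, the ATP synthase, makes ATP as protons return through its membrane ring. Several complex IV subunits have isoforms best known from muscle, testis or lung, and in mammalian blood the white cells and platelets hold mitochondria whereas mature red cells have none.

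The animals were 6 females bled from the jugular vein, 3 carrying fat-1 and 3 wild type, with 1 array each. The transgene, fat-1, comes from the worm Caenorhabditis elegans and codes for an enzyme that makes omega-3 out of omega-6 fatty acids. All were 3 years old but for fat-1 replicate 1, aged 3.5 years per the labels, and the sources used here give neither the promoter of the transgene nor the number of founder lines. The fat-1 arrays lay on slide 1 and the wild type arrays on slide 2, so slide and genotype cannot be told apart. The transcript of the transgene itself was not analysed here.

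A level is given throughout as the log2 of a probe's background-subtracted intensity minus the log2 of the 75th percentile of its array, and values of a group are listed in the order of replicates 1, 2 and 3. A difference is the fat-1 level minus the wild type level, in log2 units, given with its standard error (SE) and its Benjamini-Hochberg adjusted p from a limma fit over 26826 probes. The same fit was run on the authors' value table, whose columns all have the same distribution. The 75th percentile was 714, 745 and 1065 intensity units on the fat-1 arrays, against 741, 610 and 886 on the wild type arrays. Of all probes, 60.4% to 63.5% were well above background on fat-1 arrays and 58.4% to 61.3% on wild type arrays, and no probe was saturated. Markers of the cells of blood were present: 14 of 14 T cell, 13 of 13 monocyte, 7 of 7 B cell, 8 of 8 platelet, 11 of 13 red cell and 7 of 12 neutrophil markers on the array were measured. The neutrophil genes CXCR1, CXCR2, CATHL1, CATHL2 and CATHL4 were not.

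Probes of the 4 genes with the lowest p-values are shown first, and for COX6A2 the probe shown is the second, which overlaps the brightest. They are deposited probe sequences, 5′ to 3′, in the 30 bases around or at the start of the probe, or the whole of 60 bases for COX6A2. Capitals mark AATAAA, the commonest signal for cleavage and polyadenylation of a transcript, usually found near its 3′ end. Positions are those of the array files on Btau_3.1; whether they lie in exons or untranslated regions was not looked up, for want of an annotation of that build.
COX6B2, brightest probe, chr18:62516181-62516239, plus strand: ctttaagcctcaAATAAAgttgtgttactg
COX6B2, second probe, chr18:62516084-62516143, plus strand: aatctaacggtctgaacgtggcttctcctc
COX7A1, brightest probe, chr18:46231291-46231350, minus strand: cgaacaggcatcAATAAAtgtgctggtttc
COX5A, only measured probe, chr21:33846139-33846198, plus strand: tgtaatgtaacttggactttAATAAAaggg
COX6A2, second probe, chr25:29304644-29304703, minus strand: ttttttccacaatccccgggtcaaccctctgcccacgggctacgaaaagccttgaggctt

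The search for AATAAA was made on the strand of the probe as given, and no other motif was searched. It was found in 32 of the 129 probes (24.8%), against 4083 of all 43653 probes (9.35%). On the opposite strand it stood in 7 of the 129 (5.43%) and in 1510 of all (3.46%). No probe of these genes shared a run of 20 or more bases with a probe of another gene, whereas 19 of the genes had probes that shared such a run with each other, so that several probes of 1 gene are not independent measurements.

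Transcripts of these complexes lay mostly a little lower in fat-1 blood, by less than the test could call for any single gene. None of the 46 measured genes passed an adjusted p of 0.05, and the lowest adjusted p was 0.150 (limma, Benjamini-Hochberg over all 26826 probes), where 0.171% of all probes passed. In the authors' value table the lowest was 0.160, and 0.0596% of all probes passed. In blood, fewer cells of a type and less RNA per cell cannot be told apart.

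The difference was below 0 for 41 of the 46 genes (89.1%), against 55.4% of all measured probes, and its median was -0.28, against -0.06 over all measured probes. The groups did not overlap, with all 3 fat-1 animals below all 3 wild type animals, for 22 of the 46 (47.8%), against 12.7% of all probes. No gene had all fat-1 animals above all wild type animals, which 6.89% of all probes did (7.81% in the authors' value table, again with 0 of these genes). At an unadjusted p of 0.05, 4 genes were lower (8.70%, against 6.71% of all probes) and 0 were higher (6.11% of all probes). In the limma fit the SE of a gene's difference was 0.19 to 0.28, about as large as the median difference itself.

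The size of this shift depended on the scaling and went with brightness. All measured probes were ranked by brightness and split into 5 classes of equal size; of the 46 genes, 41 lay in class 5, the brightest, 3 in class 4, 1 in class 3 and 1 in class 1. In the brightest class the median difference of all probes was -0.18, 76.5% of probes were below 0 and 18.1% had all fat-1 animals below all wild type animals. Of its 5365 probes, 157 had all fat-1 animals above all wild type animals, and 405 did in the authors' value table. At an unadjusted p of 0.05 (limma), 276 probes of this class were lower and 75 higher with 75th percentile scaling. In classes 1 to 4 the medians were 0.04, 0.03, 0.02 and -0.07. In the authors' value table the median over the brightest class was -0.02, with 53.3% of its probes below 0. There the median of the 46 genes was -0.09, 34 of them (73.9%, against 51.8% of all probes) were below 0, and the groups did not overlap for 12 (26.1%, against 12.8% of all probes and 14% of the brightest class). Both scalings shared 11 genes without overlap. At an unadjusted p of 0.05 the table gave 4 lower genes (8.70%, against 7.69% of all probes) and 0 higher (6.10% of all probes). The part of brightness in the difference of single genes was not tested.

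**Figure D1:**
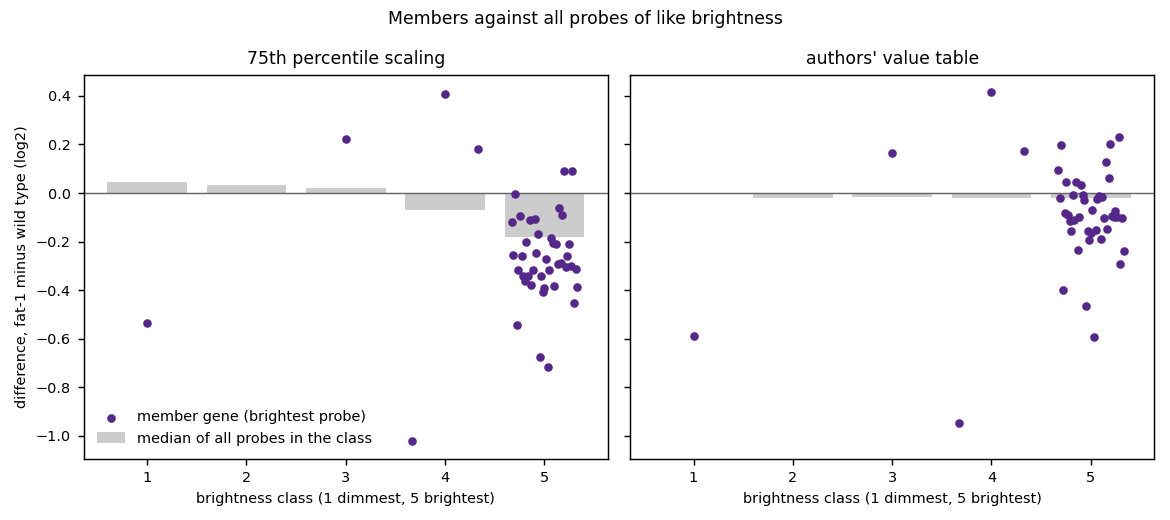
Difference in level (fat-1 minus wild type, log2) of each of the 46 measured genes, 1 point per gene, by the brightness class of its probe, with 75th percentile scaling on the left and the authors' value table on the right; grey bars are the medians of all measured probes in each class. In the brightest class, which holds 41 of the genes, the bar lies at -0.18 on the left and at -0.02 on the right.

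By complex, the median difference was -0.34 for the 15 measured complex IV genes, -0.30 for the 10 genes of complex III with cytochrome c, -0.26 for the 15 of complex V and -0.08 for the 4 of complex II. In the authors' value table these medians were -0.16, -0.10, -0.08 and 0.09, so that complex II changed sign. No difference between complexes was tested.

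**Figure D2:**
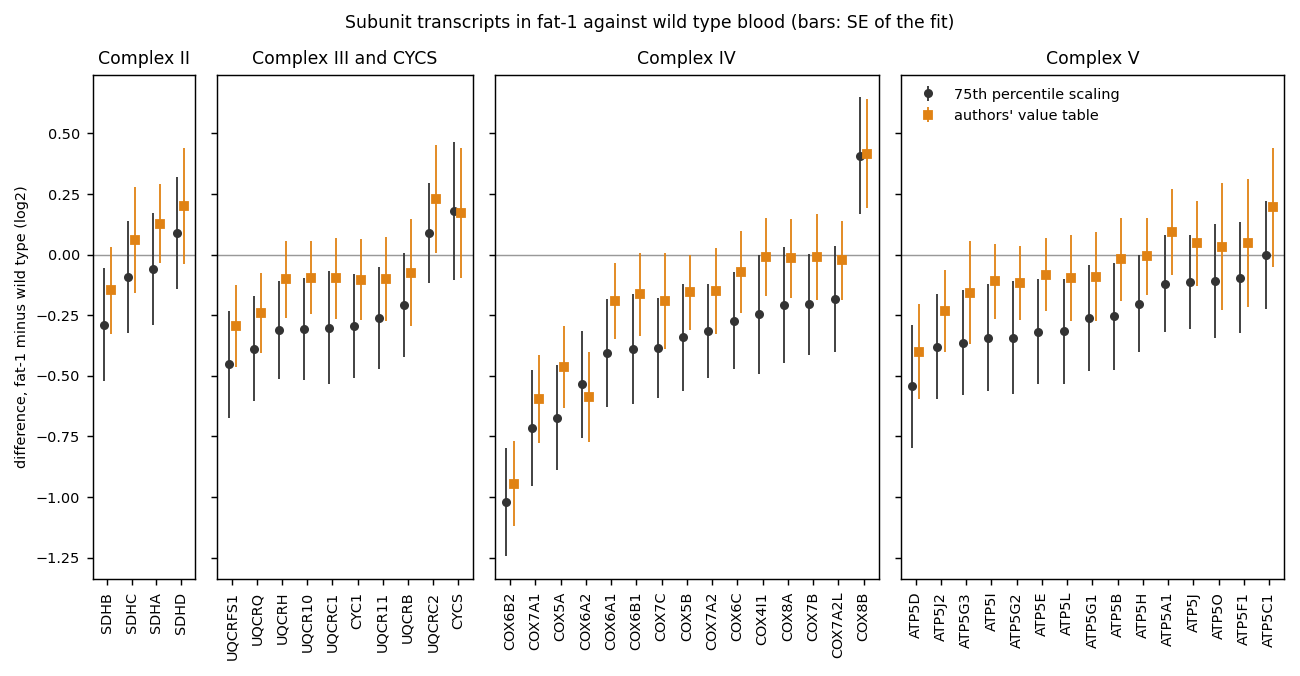
Difference in level (fat-1 minus wild type, log2) with the SE of the limma fit, for each measured subunit or carrier of complexes II to V, with 75th percentile scaling (circles) and in the authors' value table (squares). COX6B2 lies lowest at -1.02 and COX8B highest at 0.41.

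Averaged over the 15 complex IV genes, the level relative to the mean of all 6 animals was -0.10, -0.27 and -0.17 in fat-1 animals, against 0.15, 0.41 and -0.02 in wild type animals. All 3 fat-1 animals were below all 3 wild type animals, and in the authors' value table they were too, at -0.02, -0.22 and -0.07 in fat-1 animals, against 0.10, 0.12 and 0.09 in wild type animals. The 4 measured tissue isoforms gave table means of -0.09, -0.36 and -0.19 in fat-1 animals, against 0.14, 0.41 and 0.09 in wild type animals. For the 10 ubiquitous subunits alone the gap was narrow. Their table means were 0.006, -0.176 and -0.044 in fat-1 animals, against 0.104, 0.012 and 0.098 in wild type animals. For complex V the means were -0.01, -0.25 and -0.11 in fat-1 animals, against 0.12, 0.26 and 0.00 in wild type animals. These did not overlap either, but the means of the table, 0.09, -0.19 and 0.01 in fat-1 animals against 0.05, -0.09 and 0.13 in wild type animals, did. Complex III gave -0.03, -0.22 and -0.08 in fat-1 animals and 0.08, 0.21 and 0.05 in wild type animals, and overlapped in the table. The means of complex II, -0.05, -0.23 and 0.14 in fat-1 animals and 0.14, 0.12 and -0.13 in wild type animals, overlapped in both.

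Single animals stood out in this. Wild type replicate 2 was the highest of its group for 34 of the 46 genes with 75th percentile scaling and for 10 in the table. Fat-1 replicate 2 was the lowest of its group for 31 genes with 75th percentile scaling and for 35 in the table. Its low position thus did not depend on the scaling, whereas the high position of wild type replicate 2 did.

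**Figure D3:**
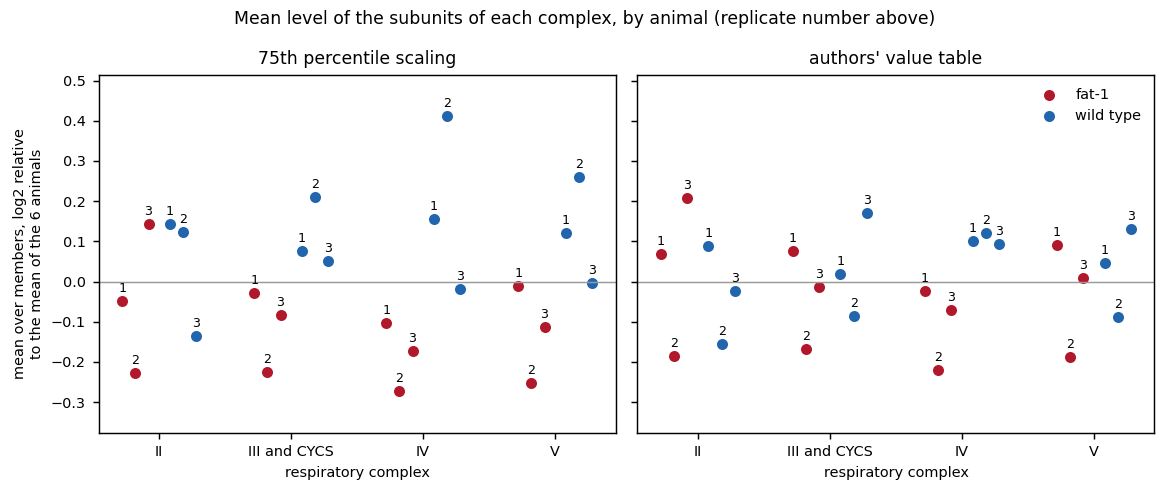
Mean level over the measured genes of each complex, log2 relative to the mean of the 6 animals, 1 point per animal with its replicate number, with 75th percentile scaling on the left and the authors' value table on the right. In complex IV the 3 fat-1 points lie below the 3 wild type points in both panels.

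Complex II had the median difference nearest 0 with 75th percentile scaling, though not in the authors' value table, where complex V was nearer. SDHA, the flavoprotein that oxidises succinate, had levels of 5.78, 5.80 and 5.93 in fat-1 blood, against 5.94, 6.20 and 5.55 in wild type blood, and the groups overlapped (difference -0.06 ± 0.23 SE, adjusted p = 0.907). SDHB, the iron-sulfur subunit, was at 3.02, 2.74 and 3.07 in fat-1 blood, against 3.28, 3.49 and 2.91 in wild type blood. Its difference of -0.29 (adjusted p = 0.554) was the largest of the 4, with wild type replicate 3 inside the fat-1 range.

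The membrane anchors SDHC and SDHD bind ubiquinone and hold the enzyme in the inner membrane. For SDHC the levels were 4.0, 3.72 and 4.26 in fat-1 blood and 4.29, 4.09 and 3.87 in wild type blood. SDHD stood at 2.81, 2.63 and 3.12 in fat-1 blood, against 2.85, 2.51 and 2.92 in wild type blood. Both pairs of groups overlapped, with differences of -0.09 and 0.09.

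In complex III, 8 of the 9 subunits were below 0, against 55.4% of all probes and 76.5% of the brightest class. All fat-1 animals were below all wild type animals for 5 of them, against 12.7% of all probes and 18.1% of the brightest class. In the authors' value table this held for 3, against 12.8% of all probes and 14% of the brightest class. The lowest subunit was UQCRFS1, the Rieske iron-sulfur protein that takes electrons from ubiquinol. It was at 4.16, 4.03 and 4.39 in fat-1 blood, against 4.65, 4.87 and 4.42 in wild type blood. The groups did not overlap but came close, between fat-1 replicate 3 and wild type replicate 3, and the difference was -0.45 ± 0.22 (adjusted p = 0.413).

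UQCRQ and UQCRH are small accessory subunits, the second of them the hinge protein at the site of cytochrome c1. UQCRQ had levels of 3.43, 3.29 and 3.55 in fat-1 blood, against 3.69, 4.08 and 3.66 in wild type blood (difference -0.39, adjusted p = 0.441). UQCRH was at 6.07, 6.11 and 6.13 in fat-1 blood, against 6.46, 6.57 and 6.21 in wild type blood (difference -0.31, adjusted p = 0.484). For each, all fat-1 animals were below all wild type animals; in the authors' value table that held for UQCRQ and not for UQCRH.

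The core protein UQCRC2 was the subunit of complex III not below 0, with 3.90, 3.58 and 3.64 in fat-1 blood against 3.63, 3.49 and 3.73 in wild type blood (difference 0.09). CYCS, cytochrome c itself, was at 0.24, -0.06 and 0.22 in fat-1 blood, against 0.05, -0.59 and 0.40 in wild type blood (difference 0.18, adjusted p = 0.753). In both the groups overlapped. The remaining subunits, CYC1 (cytochrome c1), UQCRC1 (the other core protein), UQCR10, UQCR11 and UQCRB, had differences of -0.31 to -0.21.

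Complex IV held all 4 genes with an unadjusted p under 0.05 (limma), and 3 of them are tissue isoforms. These were 8.70% of the 46 genes, near the 6.71% of all probes that were lower at that p. COX6B2, the testis isoform of a subunit on the cytochrome c side, had levels of 1.11, 0.93 and 1.01 in fat-1 blood, against 1.99, 2.35 and 1.78 in wild type blood. The groups were well apart, and its level was 2.03-fold lower in fat-1 blood (difference -1.02 ± 0.22, adjusted p = 0.150). In the table the fold was 1.93 (adjusted p = 0.160). Its second probe, which lies 5′ of the first and shares no run of 20 bases with it, read -3.59, -2.48 and -2.40 in fat-1 blood, against -0.92, -0.33 and -0.97 in wild type blood (difference -2.09 ± 0.35). That adjusted p was 0.0817, the lowest of the 119 probes tested.

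COX7A1, the heart and skeletal muscle isoform of subunit VIIa, was at 2.08, 1.92 and 2.10 in fat-1 blood, against 2.58, 3.15 and 2.50 in wild type blood. The fat-1 animals were close together and below every wild type animal, with a level 1.64-fold lower (difference -0.71 ± 0.24, adjusted p = 0.325). Its second probe shared 39 bases with the first and gave -0.74. Another probe, not well above background on enough arrays, was not tested.

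COX6A2, the muscle isoform of subunit VIa, was dim, at -3.86, -3.97 and -4.15 in fat-1 blood, against -3.36, -3.27 and -3.74 in wild type blood. The groups were separated by the gap between fat-1 replicate 1 and wild type replicate 3, and the level was 1.45-fold lower in fat-1 blood (difference -0.53 ± 0.22, adjusted p = 0.380). A second probe sharing 40 bases, well above background on 5 of the 6 arrays, gave -0.98 ± 0.27 (adjusted p = 0.251).

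COX5A, the ubiquitous subunit Va, was the only gene of this kind among the 4. It had levels of 4.97, 4.69 and 4.92 in fat-1 blood, against 5.54, 5.75 and 5.31 in wild type blood. All fat-1 animals lay below all wild type animals, and the level was 1.59-fold lower (difference -0.67 ± 0.22, adjusted p = 0.315). In the table it was 1.38-fold lower (adjusted p = 0.340).

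Over 15 fits, that with 75th percentile scaling and 14 alternatives with 1 probe per gene and equal array weights, an unadjusted p under 0.05 was kept in 15 for COX6B2, 14 for COX5A, 14 for COX7A1 and 7 for COX6A2. Leaving out 1 animal at a time kept it in 6 of 6 fits for COX6B2, 5 for COX5A, 5 for COX7A1 and 1 for COX6A2.

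COX8B, the heart and muscle isoform of subunit VIII in cattle, ran the other way. Its levels were 0.59, -0.07 and 0.36 in fat-1 blood, against -0.29, 0.05 and -0.10 in wild type blood. Fat-1 replicate 2 lay among the wild type animals, and the difference of 0.41 ± 0.24 did not pass (adjusted p = 0.457). A second probe sharing 41 bases gave 0.37. A further probe, tied to COX8B by a RefSeq name and not by the name rule, was well above background on 3 arrays and gave -1.16.

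**Figure D4:**
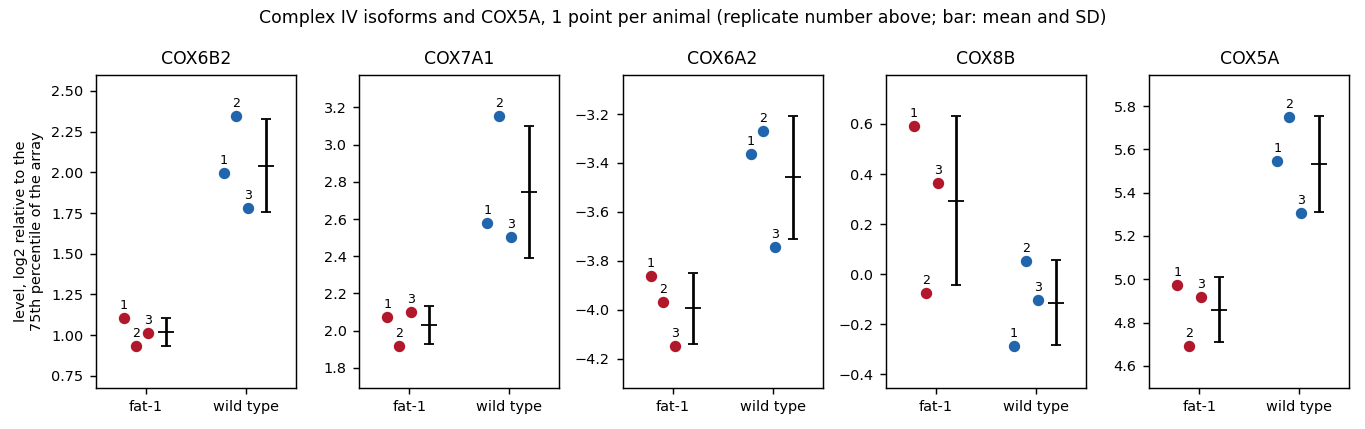
Level (log2, relative to each array's 75th percentile) of COX6B2, COX7A1, COX6A2, COX8B and COX5A in each animal, 1 point per animal with its replicate number, fat-1 left of wild type, with mean and SD (n = 3) at the side of each group. The groups do not overlap in COX6B2, COX7A1, COX6A2 and COX5A, and overlap in COX8B.

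COX4I2, the isoform of subunit IV known from lung, was well above background on 2 fat-1 arrays, those of replicates 1 and 2, and on 0 wild type arrays. Its levels were -4.17, -3.33 and -7.34 in fat-1 blood, against -7.15, -6.08 and -6.54 in wild type blood. Fat-1 replicate 3 was thus as dim as the wild type animals. A floor was taken on each wild type array as the lowest signal counted as above background, or the probe's own level where higher. The mean of fat-1 blood, fat-1 replicate 3 included at its own dim value, was 1.71-fold higher than the mean of that floor. This rested on single animals: it was 3.91-fold without fat-1 replicate 3, whereas leaving out fat-1 replicate 2 put the fat-1 mean at -5.76, under the floor of -5.72, so that no fold was left. In a limma fit without the filter on dim probes the adjusted p was 0.614. The isoforms COX7B2 and COX8C were not analysed here.

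The other 9 ubiquitous complex IV subunits (COX4I1, COX5B, COX6A1, COX6B1, COX6C, COX7A2, COX7B, COX7C and COX8A) surround the catalytic core, and their differences ran from -0.41 in COX6A1 to -0.21 in COX7B. With COX5A their median was -0.33, and -0.15 in the table. COX7A2L, which joins complexes III and IV into supercomplexes, was at 3.79, 3.82 and 4.06 in fat-1 blood, against 3.94, 4.33 and 3.94 in wild type blood, an overlap (difference -0.18). COX4NB, outside the complex medians, gave -0.17, and ATP5S gave 0.22.

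In complex V all 15 measured subunits were below 0 with 75th percentile scaling and 10 in the authors' value table. The lowest was ATP5D (current symbol ATP5F1D), the delta subunit in the central stalk of the catalytic F1 part. It had levels of 3.53, 3.53 and 3.26 in fat-1 blood, against 3.77, 4.45 and 3.73 in wild type blood. The groups did not overlap, wild type replicate 2 stood highest, and the difference was -0.54 ± 0.26 (adjusted p = 0.406).

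ATP5J2 (ATP5MF, subunit f of the membrane part) was at 3.74, 3.49 and 3.81 in fat-1 blood, against 4.04, 4.27 and 3.87 in wild type blood (difference -0.38, adjusted p = 0.446). ATP5G3 (ATP5MC3), 1 of 3 genes that encode the same c subunit of the rotating ring, was at 5.58, 5.10 and 5.54 in fat-1 blood, against 5.75, 5.84 and 5.72 in wild type blood (difference -0.36, adjusted p = 0.461). Neither pair of groups overlapped, and in the table only ATP5J2 of these 2 kept that. The other c subunit genes ATP5G1 and ATP5G2 gave -0.26 and -0.34.

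At the other end were ATP5C1 (ATP5F1C), the gamma subunit that turns inside F1, and ATP5F1 (ATP5PB), subunit b of the outer stalk. ATP5C1 had 5.22, 4.81 and 5.22 in fat-1 blood, against 5.28, 4.91 and 5.06 in wild type blood (difference -0.003). ATP5F1 had 4.52, 4.04 and 4.35 in fat-1 blood, against 4.58, 4.15 and 4.47 in wild type blood (difference -0.09). In both, replicate 2 of each group was its lowest.

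By place in the enzyme, the median was -0.34 for the 3 c ring genes and -0.34 for the 3 other membrane genes (ATP5I, ATP5J2 and ATP5L), -0.25 for the 5 F1 genes and -0.11 for the 4 outer stalk genes (ATP5F1, ATP5H, ATP5J and ATP5O). In the table these medians were -0.12, -0.11, -0.02 and 0.04, in the same order of places. The remaining F1 subunits ATP5A1 (alpha), ATP5B (beta, which carries the catalytic sites) and ATP5E (epsilon) gave -0.12, -0.25 and -0.32.

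Where a gene had more than 1 measured probe, they mostly read alike. Of 38 such genes, 31 had differences within a range of 0.25, and 3 (UQCRC2, CYCS and ATP5F1) had probes of both signs, 0 of them more than 0.5 apart. The widest ranges were in COX7C, COX6B2, SDHC, SDHA and UQCRFS1. Sequences of COX7C and UQCRFS1 are given because their probes lie close together and gave unlike differences. Capitals mark AATAAA or, in the whole probe of 60 bases of UQCRFS1, the stop triplet that closes the longest open reading frame of the probe; the others are 30 bases of the probe.
COX7C, second probe, chr7:87650581-87650640, plus strand: tcagcatcctagatatgtttgtaAATAAAc
COX7C, probe 3, chr7:87650659-87650718, plus strand: atgcctcttctctgaaatatggaacatggt
UQCRFS1, brightest probe, chr18:288756-288813, minus strand: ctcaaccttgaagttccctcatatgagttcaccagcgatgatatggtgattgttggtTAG
UQCRFS1, probe 3, chr18:288527-288585, minus strand: attcacctaaaaaagccccccattaaacat

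The brightest COX7C probe was at 5.60, 5.24 and 5.51 in fat-1 blood, against 5.88, 5.88 and 5.75 in wild type blood (difference -0.38). The second, with AATAAA, was at 4.50, 4.29 and 4.53 in fat-1 blood, against 4.78, 4.88 and 4.72 in wild type blood (difference -0.35). In both, all fat-1 animals lay below all wild type animals. The third probe, whose position begins downstream of the second, was at 0.17, -0.44 and -0.22 in fat-1 blood, against 3.40, -0.09 and 3.35 in wild type blood. Wild type replicates 1 and 3 stood far above the other 4 animals, and wild type replicate 2 lay inside the fat-1 range, so the groups overlapped (difference -2.39 ± 0.83, adjusted p = 0.340). The 2 other COX7C probes did not show that split of the animals.

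For UQCRFS1 the third probe, downstream of the stop triplet, was at 1.79, 1.80 and 2.19 in fat-1 blood, against 2.88, 3.07 and 2.78 in wild type blood. All fat-1 animals were below all wild type animals, as with the gene's other probes, but the difference of -0.99 ± 0.22 (adjusted p = 0.155) exceeded those of the brightest and the second probe, -0.45 and -0.45, although the second lies farther downstream still. In SDHA 1 of 4 probes gave -0.62 (adjusted p = 0.392), where the other 3 gave -0.18 to -0.06. In SDHC a probe from an expressed sequence tag gave -0.85 (adjusted p = 0.421), against -0.09 and -0.08. No difference between probes was tested.

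**Figure D5:**
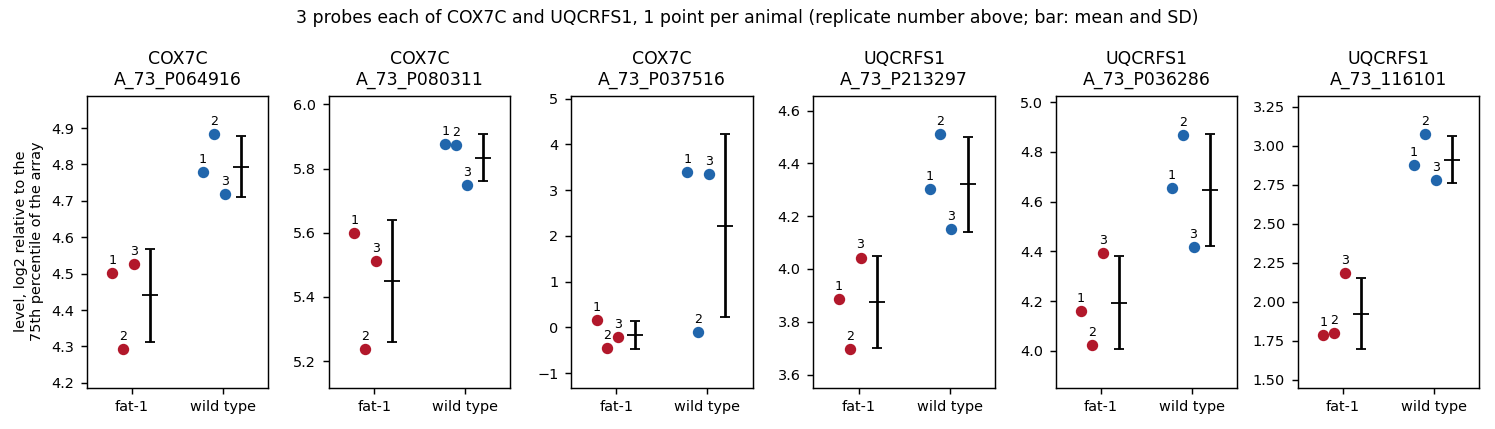
Level (log2, relative to each array's 75th percentile) of 3 probes each of COX7C and UQCRFS1 in each animal, 1 point per animal with its replicate number, fat-1 left of wild type, with mean and SD (n = 3) at the side of each group. Wild type replicates 1 and 3 stand apart at the third COX7C probe, and at the third UQCRFS1 probe the difference is -0.99, against -0.45 at the brightest.

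COX7B had 4 measured probes, 2 on each strand, and a pair of them were exact reverse complements of each other over 60 bases. The same stretch of 30 bases is given as each of the pair reads it, at chr17:61163736-61163795.
COX7B, plus strand probe: ggaatggagagaacagtaatcatcccagct
COX7B, minus strand probe: agctgggatgattactgttctctccattcc
All 4 COX7B probes gave a difference between -0.24 and -0.20, and in each the groups overlapped. No other gene had probes that shared 20 or more bases on opposite strands.

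Other mitochondrial genes lay to the same side with 75th percentile scaling. Of the 37 complex I subunits, 34 were below 0 (91.9%) with a median of -0.25, and 15 (40.5%) had all fat-1 animals below all wild type animals, against 12.7% of all probes and 18.1% of the brightest class. In the authors' value table, 28 were below 0 (75.7%, against 51.8% of all probes), and the median was -0.08. There the groups did not overlap for 8 lower genes (21.6%), against 12.8% of all probes and 14% of the brightest class. For 1 gene they did not overlap in the higher direction, against 7.81% of all probes. NDUFS8 gave -0.53 (adjusted p = 0.396) and NDUFB6 -0.47 (adjusted p = 0.398). Of 20 genes of mitochondrial import and the outer membrane, 19 were below 0 with a median of -0.26, among them TIMM13, a chaperone of the intermembrane space (-0.56, adjusted p = 0.380), and PHB2, a prohibitin (-0.48).

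Of 30 measured assembly factors and late-named subunits of complexes II to V, 26 were below 0 with a median of -0.19. COA1, a complex IV assembly factor, gave -0.62 (adjusted p = 0.342), and UQCC3, a complex III assembly factor, gave -0.46. The 12 measured subunits encoded in mitochondrial DNA had a median of -0.19 with 9 below 0, but 0.04 with 4 below 0 in the table; the lowest p were those of ATP8 (-0.35) and ND5 (-0.38). Citric acid cycle enzymes had a median of -0.14 with 9 of 16 below 0, with DLD at 0.77, and a median of -0.02 with 9 of 16 below 0 in the table. Glycolytic enzymes had a median of -0.09 with 12 of 17 below 0, with TPI1 at -0.37 and PFKP at -0.37, but 0.08 with 4 of 17 below 0 in the table. Regulators of mitochondrial gene expression lay at 0.07 with 6 of 14 below 0, with TFAM, which packages mitochondrial DNA, at 0.47 and GABPB1 at 0.45. In the table they lay at 0.17 with 4 of 14 below 0. No gene of these lists passed an adjusted p of 0.05 (limma).

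Marker genes of blood cells also differed between the animals. Of the gamma-delta T cell markers, 5 of 5 were below 0 with a median of -1.45, and their mean level relative to all animals was -1.68, -0.11 and -0.33 in fat-1 blood, against 0.58, 0.92 and 0.63 in wild type blood. SOX13 gave -1.50 (adjusted p = 0.143) and WC1.3 gave -1.52 (adjusted p = 0.248). The T cell list had 12 of 14 below 0 and a median of -0.28, and its mean ran from -0.47 to 0.07 in fat-1 blood and from -0.15 to 0.47 in wild type blood. CD247 gave -0.86 (adjusted p = 0.327) and CD3E -0.60, whereas CD8A gave 0.73 and CD28 0.45.

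Other lists lay on the opposite side. Monocyte markers had 2 of 13 below 0 and a median of 0.43, with a mean of -0.22 to 0.36 in fat-1 blood and -0.29 to -0.01 in wild type blood. CX3CR1 gave 0.69 (adjusted p = 0.340) and CST3 -0.60. Neutrophil markers had 1 of 7 below 0 and a median of 0.27, with a mean of -0.22 to 0.32 in fat-1 blood and -0.48 to 0.34 in wild type blood; FCGR3A gave 0.83 (adjusted p = 0.224) and TREM1 0.35.

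Platelet markers had 1 of 8 below 0 and a median of 0.46, with a mean of -0.22 to 0.39 in fat-1 blood and -0.34 to 0.25 in wild type blood; CLEC1B gave -1.01 and PPBP 0.50. Red cell markers had 4 of 11 below 0 and a median of 0.93, with a mean of -0.05 to 0.80 in fat-1 blood and -1.14 to 1.15 in wild type blood; SLC4A1 gave -1.44 and EPB42 1.35. Natural killer and cytotoxic markers had 3 of 9 below 0 and a median of 0.36. Their mean was -0.22 to 0.77 in fat-1 blood and -0.61 to 0.08 in wild type blood. KLRK1 gave 0.90 and GZMA 1.3, whereas NCR1 gave -0.82, KLRD1 -0.64 and GNLY -0.29. B cell markers had 5 of 7 below 0 and a median of -0.28, with a mean of -0.33 to 0.15 in fat-1 blood and -0.29 to 0.56 in wild type blood; BLK gave -0.85 and CR2 1.29. No marker passed an adjusted p of 0.05 (limma), and the part of any cell type in the respiratory chain differences was not tested.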

How the data were processed

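Processed intensity per spot came from the authors' Agilent Feature Extraction 10.7.1.1 files, where it is background-subtracted and not scaled between arrays, per the file headers; mean and background intensity were used as deposited in an alternative. The authors' value table holds deposited log2 values with equal column distributions (median 6.38), which correlated at 0.999 or above with their own arrays (the tool behind it: not given in the sources used here). Wild type replicate 2 was deposited with fewer digits per value, and gene names were therefore read from another array's file. Spots marked as outliers by the scanner software were dropped (32 probes left out), spots of a probe averaged, and probes kept if well above background on 3 or more of the 6 arrays. Groups were compared with limma 3.58.1 in R 4.3.3 (lmFit, eBayes, group alone), with Benjamini-Hochberg adjustment over 26826 probes. On simulated arrays, 3 against 3, it called 1 of 100 probes changed by 1 log2 unit and 57 of 100 changed by 2. Figures used Python 3.11.15. The number of arrays limits the precision.

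Values per animal are given for every complex II gene and, in each other complex, for the 3 genes with the smallest p and the 2 highest differences, and for genes with an unadjusted p under 0.05; tissue isoforms are given by detection, and of each of the 15 gene lists up to 2 genes with the smallest p. Single probes, and genes given only by a difference, were chosen after their values were seen. For the T cell list and the natural killer and cytotoxic list, the genes on the opposite side of 0 were added. The genes and lists were chosen with earlier results of these data known. Current symbols came from RefSeq, assembly ARS-UCD2.0. Alternatives were quantile normalization, median scaling, the authors' table, normexp background correction, other filters, an intensity trend, array weights, a replicate block, the mean over a gene's probes and leaving out each animal, which for the COX4I2 fold over its floor was added after seeing the data. 1 gene of a list and 1 probe sequence are not reported here.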

Additional observations from a re-analysis of the deposited data

How the results depend on the processing

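With quantile normalization, the median difference was -0.0938 over all measured genes, -0.0992 in complex III with cytochrome c, -0.156 in complex IV and -0.0889 in complex V. With the authors' value table these were -0.0928, -0.0989, -0.156 and -0.0825, and complex II had 0.0944. The mean over all kept probes of a gene gave -0.259 for complex II. With array weights, 10 genes passed the adjusted threshold and 24 an unadjusted p of 0.05, but the estimation of the weights stopped before it converged, with a weight of 238 for wild type replicate 1 and 0.146 to 0.633 for the others, and 8114 of all 26826 probes passed. Under every other setting 0 of the genes passed the adjusted threshold, with a lowest adjusted p of 0.0600 (intensity trend). Leaving out 1 animal at a time gave 1 gene (without fat-1 replicate 2) to 7 genes (without wild type replicate 3) at an unadjusted p of 0.05. It gave medians of -0.364 to -0.182 over all genes, -0.216 to 0.00116 in complex II, -0.375 to -0.171 (without wild type replicate 2) in complex III, -0.427 to -0.238 in complex IV and -0.359 to -0.183 in complex V. The number of genes below 0 stayed between 34 and 42 over all settings.

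Calls over all probes numbered 46 with 75th percentile scaling, 16 with quantile normalization and with the authors' table, 58 with median scaling, 117 with normexp, 14 with no filter, 61 with probes above background on all 6 arrays, 126 with an intensity trend, 38 with the mean over a gene's probes, and 8 to 57 without 1 animal. Deviations of animals with the same replicate number correlated at 0.117, 0.185 and 0.00576, against -0.206 to 0.0768 for animals with different numbers. Whether the numbers pair the animals cannot be told from these values. With the replicate number as a block, 0 genes and 109 probes passed, the lowest adjusted p of a gene was 0.151, and the medians were those of the fit without it.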
